A study of Mus musculus with 12 samples.

Results

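Rora, Ahr, Ccr6, Il23r, Il17a, Il17f, Il22, Tmem176a and Tmem176b are genes linked to the Th17 programme, the branch of CD4 T helper cells that makes interleukin-17. They were followed across all 4 groups of a mouse array experiment. The genes were taken by their symbols from the deposited expression table, and 9 of the 9 symbols had a row, among 23185 rows that pair with 1 gene symbol and 25206 rows in all. CD4+ T cells were isolated from mouse spleen and measured on 12 whole-transcript arrays (Mouse Gene 2.0 ST), 3 for each group. Lck-Cre+;Ikzf-/- cells, called Cre+ here, were labelled as lacking Ikaros, a zinc finger transcription factor encoded by Ikzf1. Lck-Cre-;Ikzf+/+ cells, called Cre- here, carried the intact gene. The 4 groups were Cre+ and Cre- cells activated for 24 h with antibodies to CD3 on the plate and to CD28 in solution, and Cre+ and Cre- cells at baseline (0 h). The Lck promoter drives Cre in the T cell lineage from the thymus on. The labels name no Th17-polarising cytokine. Neither a Cre+ group with intact Ikaros nor a group held for 24 h without the antibodies was among the samples, so Cre and Ikaros loss cannot be told apart, nor can culture and activation. The labels used here give no age of the mice and do not say whether replicates were separate animals, so p-values measure the spread between these samples, which may be technical.

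Th17 cells arise when T cell receptor signals meet cytokines that act through STAT3, and the nuclear receptor Rora is one of the factors that set their programme. Ahr, a receptor for small aromatic ligands that acts as a transcription factor, is needed for much of their interleukin-22, Ccr6 guides them to the chemokine CCL20, and Il23r encodes the receptor subunit through which interleukin-23 sustains them. Il17a, Il17f and Il22 encode secreted cytokines that act on epithelial and stromal cells. Tmem176a and Tmem176b encode membrane proteins that cross the membrane several times, are related to the MS4A family, and are known in mice from type 17 lymphocytes and from dendritic cells.

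Of the 9 genes, only Tmem176a and Tmem176b differed between genotypes past the threshold, and both were higher in Cre+ cells, after activation and at baseline. The cytokine genes Il17a, Il17f and Il22 and the receptor gene Il23r passed in no comparison. Ccr6 fell on activation in both genotypes, as did both Tmem176 genes. The unit is log2 expression. The authors' RMA processing puts the arrays on 1 scale and gives 1 value per gene, so a step of 1 is a 2-fold step. A gene passed when its limma p, adjusted by Benjamini-Hochberg over the 23185 genes of a comparison, was under 0.05. Levels of different genes are not set against each other, since probes differ in brightness.

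**Figure D1:**
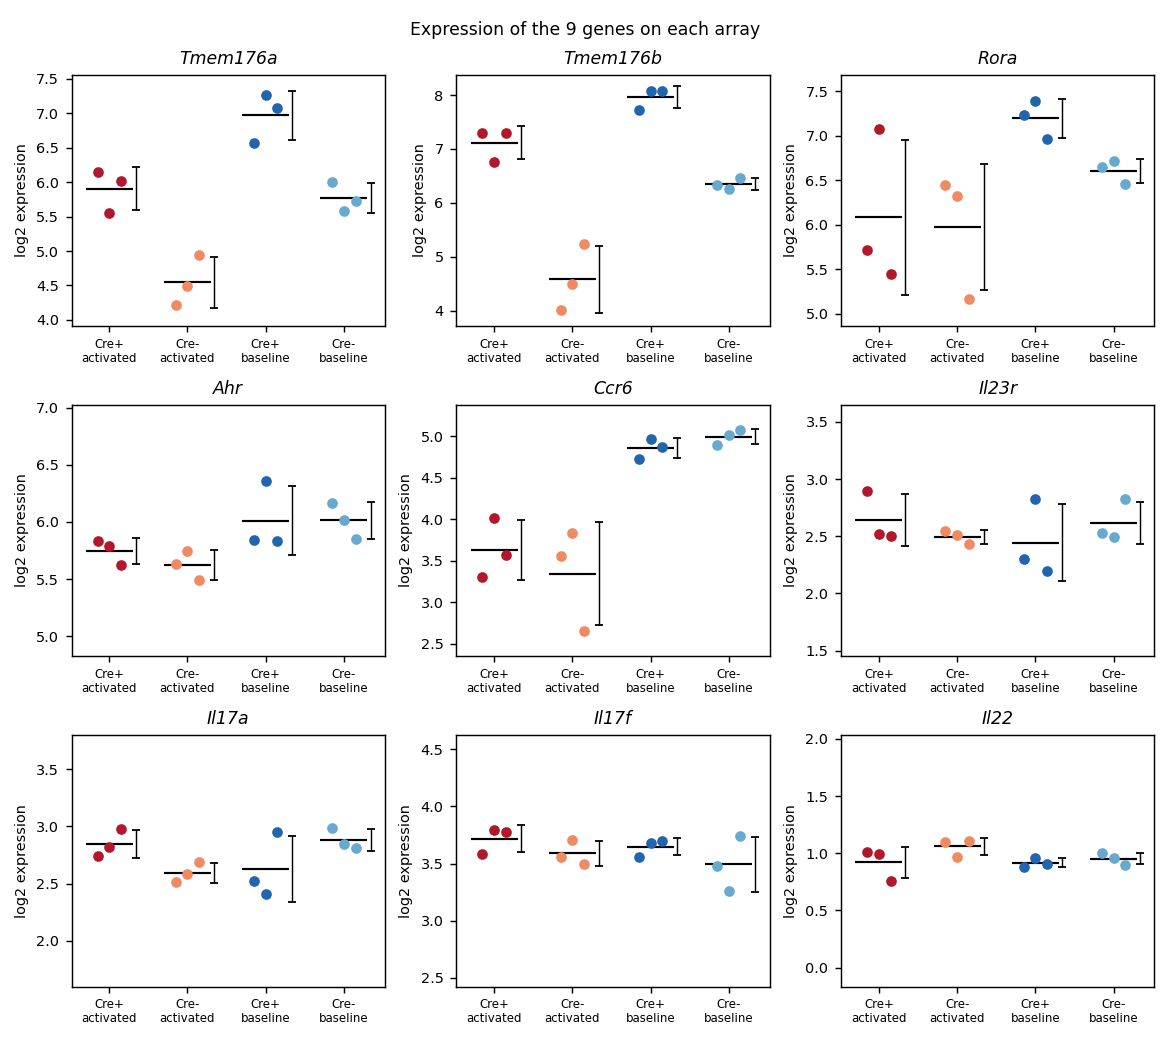
Log2 expression (vertical axis, scale differing between panels) of each of the 9 genes on the 12 arrays, with Cre+ activated, Cre- activated, Cre+ baseline and Cre- baseline cells from left to right. Points are arrays, horizontal lines are group means and the bars beside them span 1 SD on either side; Tmem176b lies between 6.76 and 7.29 on the Cre+ activated arrays, above the 3 Cre- activated arrays.

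The arrays were alike in overall level, with medians between 4.04 and 4.17. Within a group, arrays correlated at r between 0.9915 and 0.9932 at baseline, and at r between 0.9715 and 0.9937 after activation, where the arrays numbered 3 stood apart from the other activated arrays in marker levels. CD4 T cell markers (7 genes, among them Cd3e and Cd4) averaged 9.44 to 10.26 on the 12 arrays, the lowest being Cre+ activated array 3. B cell markers (7 of 8 listed genes were measured, among them Cd79a and Ms4a1) were present too. Their mean was 5.99 to 7.70 on Cre+ activated, 5.30 to 6.83 on Cre- activated, 8.49 to 8.58 on Cre+ baseline and 8.65 to 8.88 on Cre- baseline arrays. Ikzf1 itself averaged 9.98 in Cre+ and 10.11 in Cre- activated cells, and 10.36 in Cre+ and 10.53 in Cre- baseline cells (n = 3 each). Those differences did not pass by limma (adjusted p = 0.993 and 0.968). The sources used here do not say which part of the gene the probes cover, and these values do not check the genotype labels.

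Tmem176b had 7.29, 6.76 and 7.29 on the Cre+ activated arrays, against 4.01, 4.49 and 5.23 on the Cre- activated arrays. All 3 Cre+ arrays were higher than every Cre- array, as was so for 5.25% of all genes tested, and the lowest Cre+ array was 1.53 above the highest Cre- array. The difference was 2.54 (SE 0.26, 95% interval 1.98 to 3.10), a 5.81-fold higher level in Cre+ cells (limma adjusted p = 0.00078), and its p was the 17th smallest of all genes tested. Tmem176a had 6.14, 5.55 and 6.02 on the Cre+ activated arrays, against 4.21, 4.49 and 4.94 on the Cre- activated arrays. Again the groups did not overlap. The difference was 1.35 (SE 0.23, 95% interval 0.85 to 1.86), or 2.56-fold (limma adjusted p = 0.02). These were 2 of the 9 genes, where 0.729% of all genes tested passed in either direction and 0.63% were higher. Without both activated arrays numbered 3 the differences were 2.78 for Tmem176b (limma adjusted p = 0.000149) and 1.49 for Tmem176a (adjusted p = 0.019). The Tmem176a call was lost when Cre+ activated array 1 (difference 1.23) or 3 (1.30), or Cre- activated array 1 (1.19) or 2 (1.33), was left out. In a fit of the 6 activated arrays alone neither gene passed (adjusted p = 0.102 for Tmem176b and 0.187 for Tmem176a).

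At baseline the same direction held. Tmem176b had 7.72, 8.07 and 8.08 on the Cre+ baseline arrays, against 6.33, 6.25 and 6.46 on the Cre- baseline arrays. Every Cre+ array was higher, as was so for 8.82% of all genes. The difference was 1.61 (SE 0.26, 95% interval 1.04 to 2.17), or 3.05-fold (limma adjusted p = 0.0182). Tmem176a had 6.57, 7.26 and 7.07 on the Cre+ baseline arrays and 6.0, 5.58 and 5.73 on the Cre- baseline arrays, again with every Cre+ array above every Cre- array. Its difference was 1.19 (SE 0.23, 95% interval 0.69 to 1.69), or 2.29-fold (limma adjusted p = 0.0471). These 2 of 9 genes stand beside 0.552% of all genes that passed at baseline, with 0.492% higher. In the fit of all 4 groups both calls depended on every baseline array: leaving out any 1 of the 6 (Cre+ baseline 1, 2 or 3, or Cre- baseline 1, 2 or 3) ended them. The differences then lay between 1.55 and 1.73 for Tmem176b (adjusted p 0.0534 to 0.103) and between 1.05 and 1.39 for Tmem176a (adjusted p 0.0512 to 0.212). The Tmem176a call at baseline was also lost without Cre+ activated array 1 or 3 or Cre- activated array 2, which change only the shared estimate of spread (adjusted p = 0.0671, 0.0639 and 0.0778). In a fit of the 6 baseline arrays alone both genes passed (limma adjusted p = 0.00118 for Tmem176b and 0.0249 for Tmem176a). Both also passed without both activated arrays numbered 3 (limma adjusted p = 0.000978 and 0.0187).

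**Figure D2:**
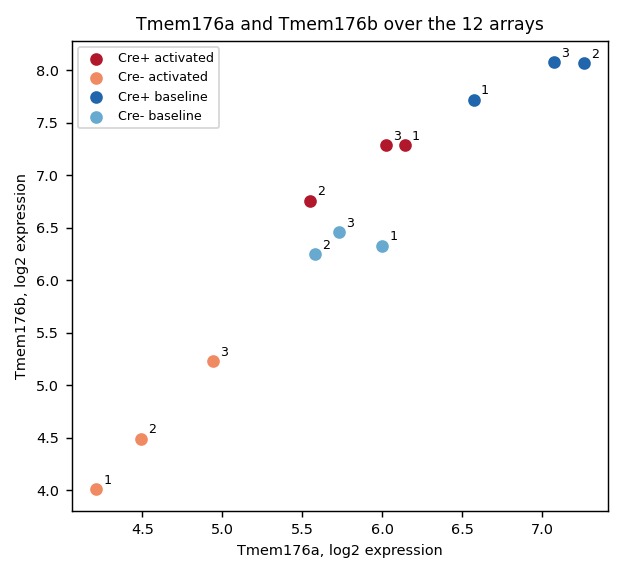
Log2 expression of Tmem176a (horizontal axis) and Tmem176b (vertical axis) on the 12 arrays, coloured by group and numbered by replicate. The 3 Cre- activated arrays lie lowest, with Tmem176b between 4.01 and 5.23, and the 3 Cre+ baseline arrays highest, between 7.72 and 8.08.

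The order of the group means was the same for both genes. Tmem176b averaged 7.95 in Cre+ baseline, 7.11 in Cre+ activated, 6.34 in Cre- baseline and 4.57 in Cre- activated cells, and no neighbouring groups in that order overlapped. Tmem176a averaged 6.96, 5.90, 5.77 and 4.55 in the same groups. There the Cre+ activated and Cre- baseline arrays overlapped, so their order is not set beyond the spread. As a description of likeness, Pearson r between the genes was 0.97 over the 12 arrays, which fall into 4 groups, and 0.86 after each group's mean was taken away. Among all 23185 genes Tmem176b was the most like Tmem176a. With predicted genes, Riken names and receptor gene segments left out, as in all such rankings here, Parp12, Tor3a and Oasl2 followed (r = 0.954, 0.952 and 0.95). The genes most like Tmem176b were Sh3bgrl, Tmem176a, Parp12 and Tor3a (r = 0.973, 0.966, 0.966 and 0.955). With group means removed other genes led, at r = 0.949 for Tmem176a (Hcn3) and 0.96 for Tmem176b (Dnph1). All these genes share the same 12 hybridisations.

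The pair lies head to head on chromosome 6, so their promoters share sequence, which is shown here because the genes moved together. RefSeq promoter windows (build GRCm38.p6), each 300 bases long with 250 before a start and 50 from it on, were held for 8 of the 9 genes. Tmem176b has 3 starts, at -495, -346 and -109 bases from the first Tmem176a start and read the other way, and Tmem176a has a further start at 173. Window 2 of Tmem176a (chr6:48841406-48841705, plus strand) and window 3 of Tmem176b (chr6:48841325-48841624, minus strand) share 219 bases, read in opposite directions. In lower case except for motif matches, both 5′ to 3′ on the gene's strand, they read:
Tmem176a: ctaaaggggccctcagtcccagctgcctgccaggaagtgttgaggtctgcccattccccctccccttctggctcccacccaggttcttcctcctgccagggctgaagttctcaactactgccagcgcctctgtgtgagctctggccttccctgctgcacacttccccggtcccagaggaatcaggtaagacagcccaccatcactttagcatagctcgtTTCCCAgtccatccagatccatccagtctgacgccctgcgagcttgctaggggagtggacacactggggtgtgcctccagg
Tmem176b: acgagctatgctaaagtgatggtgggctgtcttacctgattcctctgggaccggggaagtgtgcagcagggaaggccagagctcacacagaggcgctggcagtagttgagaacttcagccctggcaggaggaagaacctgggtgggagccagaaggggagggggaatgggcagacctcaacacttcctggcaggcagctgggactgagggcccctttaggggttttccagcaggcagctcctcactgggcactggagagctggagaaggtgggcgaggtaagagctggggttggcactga
Capitals mark TGGGAA, called the Ikaros core here, on either strand (TTCCCA when it lies on the other one). They also mark the ROR core AGGTCA (or TGACCT) and the Ahr core GCGTG (or CACGC). These letters were found in 25.6%, 16.3% and 32.4% of all 32851 promoter windows, and none of the 3 motifs contains another. The pair held 1 match in all, the Ikaros core of Tmem176a window 2, which starts at -31 from that window's start site. It begins at base 142 from the first Tmem176a start, just past the edge of Tmem176b window 3, which ends at 141. No window of Tmem176b held any of the 3 motifs, which says only that these letters are absent from these bases. The shorter stretch GGGAA was not searched for, and it does occur in Tmem176b window 3, in lower case.

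**Figure D3:**
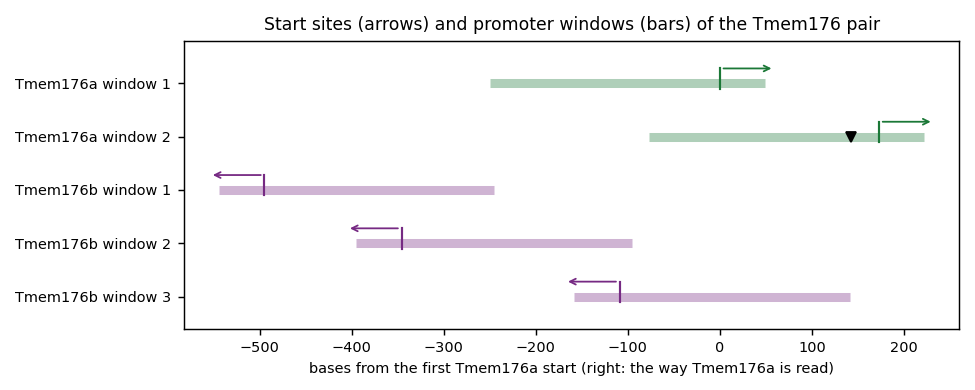
Start sites (arrows pointing the way each gene is read) and 300-base promoter windows (bars) of Tmem176a and Tmem176b, plotted as bases from the first Tmem176a start. The triangle marks the single Ikaros core match, at base 142, inside Tmem176a window 2; Tmem176b window 3 ends at 141.

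The 6 nearest protein-coding genes on each side, in RefSeq's gene order, were all measured. They include the GTPase genes Gimap1, Gimap3, Gimap4, Gimap5, Gimap6 and Gimap7 on one side and the amine oxidase gene Aoc1 on the other. None of the 12 passed between genotypes, where 0.729% of all genes passed after activation and 0.552% at baseline. Their differences lay between -0.47 and 0.14 after activation and between -0.43 and 0.44 at baseline, and 1 gene in each state had an unadjusted p under 0.05. On activation, Gimap4 was the 1 gene of the 12 that passed, lower in Cre+ cells by a difference of -0.94 (limma adjusted p = 0.0454). Of all genes, 20.7% passed on activation in Cre+ cells, 10.6% as lower, and 18.5% passed in Cre- cells. Relatives elsewhere in the genome did not pass between genotypes either. Of 15 MS4A family genes measured, 0 passed after activation and 0 at baseline by limma, where 0.729% and 0.552% of all genes passed. Their medians were -0.09 and 0.10, beside -0.01 and 0 for all genes, and none had an unadjusted p under 0.05 in either state. At baseline every Cre+ array was above every Cre- array for Ms4a6c (0.79) and Ms4a6d (0.65), as for 8.82% of all genes. For Ms4a1 (-0.18) every Cre+ array was below. Without both activated arrays numbered 3, Ms4a1 passed after activation, higher in Cre+ cells.

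**Figure D4:**
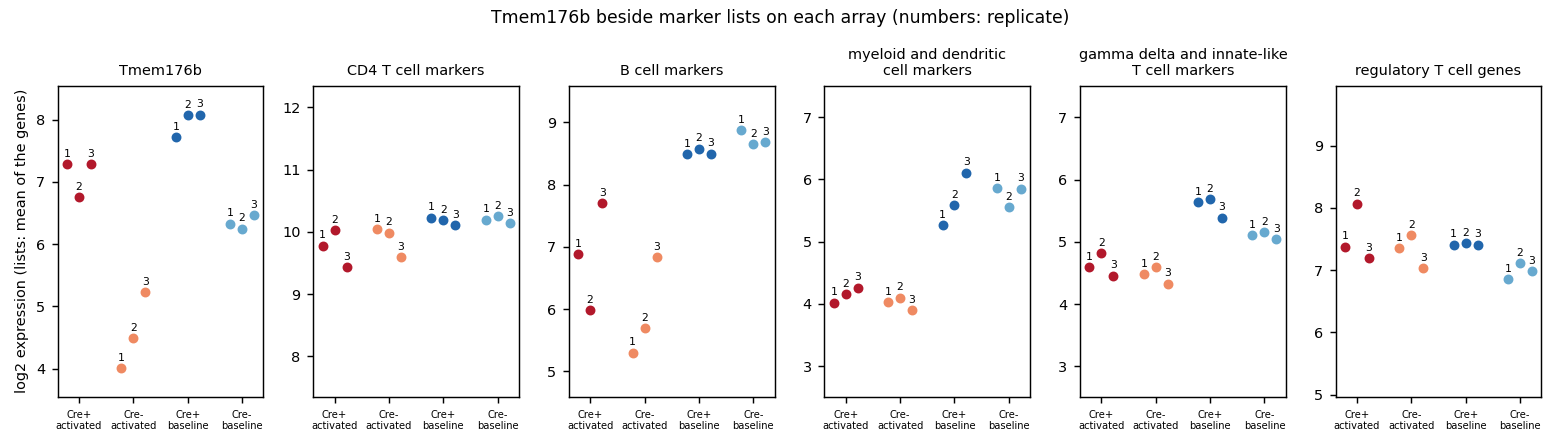
Tmem176b (left panel) beside the mean log2 level of 5 marker lists on each array, with Cre+ activated, Cre- activated, Cre+ baseline and Cre- baseline cells from left to right and the replicate number above each point. B cell markers lie at 5.99 to 7.70 on Cre+ activated arrays and 5.30 to 6.83 on Cre- activated arrays, while myeloid and dendritic cell markers lie at 4.02 to 4.26 and 3.90 to 4.1.

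Since Tmem176 genes are also known from other cells, marker lists are given beside the pair. Myeloid and dendritic cell markers (12 of 13 listed genes measured, among them Csf1r, Itgax, Siglech and Clec9a) averaged 4.02 to 4.26 on Cre+ activated and 3.90 to 4.1 on Cre- activated arrays, and 5.27 to 6.11 on Cre+ baseline and 5.56 to 5.86 on Cre- baseline arrays. Of these 12 markers 0 passed by limma between genotypes, where 0.729% of all genes passed after activation and 0.552% at baseline. Of the markers, 1 after activation and 0 at baseline had an unadjusted p under 0.05, with median differences of 0.11 and -0.07. Activation lowered 9 of them in Cre+ and 10 in Cre- cells, where 10.6% and 9.1% of all genes were lower, Siglech by differences of -3.94 and -4.14, in the direction in which Tmem176a and Tmem176b fell. The part of these cells in the fall of the pair was not tested, and in bulk samples fewer cells of a type and less RNA per cell cannot be told apart. B cell markers had a median genotype difference of 0.95 after activation and -0.18 at baseline. By limma 0 of 7 passed in either state, beside 0.729% and 0.552% of all genes, with 3 and 0 at an unadjusted p under 0.05. Without both activated arrays numbered 3, Ms4a1 passed after activation. The part of B cells in the genotype difference of the Tmem176 pair was not tested.

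Of 6 measured markers of gamma delta and innate-like T cells (8 listed), 2 passed at baseline, both higher in Cre+ cells, where 0.492% of all genes were higher. The 6 genes averaged 4.46 to 4.82 on Cre+ activated and 4.33 to 4.60 on Cre- activated arrays, and 5.39 to 5.69 on Cre+ baseline and 5.05 to 5.16 on Cre- baseline arrays. Cd163l1, a scavenger receptor gene of gamma delta T cells that make interleukin-17 in mice, averaged 5.72 ± 0.29 in Cre+ and 3.64 ± 0.19 in Cre- baseline cells (SD, n = 3 each), a difference of 2.08 (limma adjusted p = 0.000335). Sox13, a transcription factor gene of that lineage, averaged 5.5 ± 0.19 in Cre+ and 4.58 ± 0.16 in Cre- baseline cells, a difference of 0.92 (limma adjusted p = 0.00766). The other 4 did not pass and differed in sign, with differences of 0.33 for Zbtb16, -0.10 for Il1r1, -0.15 for Maf and -0.26 for Blk, whose Cre+ arrays all lay below the Cre- arrays. Neither Cd163l1 nor Sox13 passed after activation, where the differences were 0.21 and 0.17. Regulatory T cell genes (6 measured) averaged 7.19 to 8.07 on Cre+ activated and 7.03 to 7.56 on Cre- activated arrays, and 7.41 to 7.43 on Cre+ baseline and 6.86 to 7.12 on Cre- baseline arrays. In both states 1 of the 6 passed, where 0.63% of all genes were higher after activation and 0.492% at baseline. This was Nrp1, higher in Cre+ cells by 0.92 after activation and 0.66 at baseline (limma adjusted p = 0.00442 and 0.0394). The median difference of the 6 was 0.22 after activation and 0.48 at baseline. At baseline every Cre+ array was above every Cre- array for Nrp1, Foxp3, Il2ra, Ikzf2 and Ctla4, as for 8.82% of all genes. Il10 overlapped there. Foxp3, the factor that defines regulatory T cells, had differences of 0.23 and 0.17, neither past the threshold. The part of these markers in the genotype difference of the Tmem176 pair was not tested.

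Neither factor gene passed between genotypes. Rora had 5.72, 7.08 and 5.45 on the Cre+ activated arrays and 6.45, 6.32 and 5.16 on the Cre- activated arrays. The groups overlapped widely, with Cre+ array 2 the highest and Cre- array 3 the lowest. The difference was 0.11 with a 95% interval of -0.76 to 0.99 (limma adjusted p = 1). At baseline Rora had 7.24, 7.39 and 6.96 on the Cre+ arrays and 6.65, 6.72 and 6.46 on the Cre- arrays. Every Cre+ array was higher than every Cre- array there, as was so for 8.82% of all genes. The difference of 0.58 (95% interval -0.29 to 1.46) did not pass (limma adjusted p = 0.934). That interval shares its spread with the activated arrays, which varied more (SD 0.87 in Cre+ and 0.71 in Cre- cells) than the baseline arrays (0.22 and 0.14). In a fit of the 6 baseline arrays alone Rora did not pass either (limma adjusted p = 0.11). The 4 genes most like Rora over the 12 arrays were Ranbp10, Arntl, Nfe2l2 and Zfp212 (Pearson r = 0.992, 0.972, 0.971 and 0.967). Arntl encodes a core factor of the circadian clock.

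Ahr had 5.83, 5.79 and 5.62 on the Cre+ activated arrays and 5.63, 5.75 and 5.49 on the Cre- activated arrays, and the groups overlapped. The difference was 0.12 (95% interval -0.21 to 0.45, limma adjusted p = 1). At baseline Ahr had 5.84, 6.36 and 5.83 on the Cre+ arrays and 6.17, 6.02 and 5.85 on the Cre- arrays, means that were equal to 2 decimals (95% interval of the difference -0.34 to 0.33). Targets and partners of Ahr were counted too. Of 12 listed genes 11 were measured, and 0 passed between genotypes by limma, where 0.729% of all genes passed after activation and 0.552% at baseline. The 11 genes had median differences of 0.05 after activation and -0.03 at baseline, and 0 had an unadjusted p under 0.05. The genes most like Ahr were Mir3572, Zfp747, Ctnnd2 and Flad1 (r = 0.935, 0.91, 0.891 and 0.888).

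Among the receptors, Ccr6 had 3.31, 4.02 and 3.57 on the Cre+ activated arrays and 3.56, 3.83 and 2.65 on the Cre- activated arrays. Cre- array 3 was low, and the remaining 5 arrays overlapped. The difference of 0.28 (95% interval -0.29 to 0.85) did not pass, and it was -0.03 without both activated arrays numbered 3. At baseline Ccr6 had 4.73, 4.97 and 4.87 on the Cre+ arrays and 4.90, 5.01 and 5.08 on the Cre- arrays, which overlapped (difference -0.14, 95% interval -0.71 to 0.43). Il23r had 2.90, 2.52 and 2.5 on the Cre+ activated and 2.55, 2.51 and 2.43 on the Cre- activated arrays, and 2.30, 2.83 and 2.2 on the Cre+ baseline and 2.53, 2.49 and 2.83 on the Cre- baseline arrays. Its groups overlapped in both states, with differences of 0.14 (95% interval -0.23 to 0.52) after activation and -0.17 (95% interval -0.55 to 0.20) at baseline.

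Probes of Il17a, Il17f, Il22 and Il23r gave dim readings, in which dim probes and low expression cannot be told apart. Il17a exceeded 18.1% to 29.8% of all rows on an array, Il17f 35.4% to 44.9% and Il22 0.0119% to 0.663%, and Il23r 14.7% to 29.1%. Whether such values rise above the background of the array cannot be read from the deposited table. For these 4 genes only differences between groups are read.

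Il17a had 2.74, 2.82 and 2.98 on the Cre+ activated arrays, against 2.51, 2.58 and 2.69 on the Cre- activated arrays. All Cre+ arrays were higher, as was so for 5.25% of all genes. The difference of 0.25 (95% interval -0.05 to 0.56) did not pass (limma adjusted p = 0.796). At baseline the arrays overlapped, with 2.52, 2.41 and 2.95 in Cre+ and 2.99, 2.85 and 2.81 in Cre- cells (difference -0.26, 95% interval -0.56 to 0.05, limma adjusted p = 0.826). The promoter window of Il17a (chr1:20730655-20730954, plus strand, RefSeq, GRCm38.p6) is shown because it holds both an Ikaros core, at -174 from the start, and a ROR core, at -120, each on the other strand and in capitals:
Il17a: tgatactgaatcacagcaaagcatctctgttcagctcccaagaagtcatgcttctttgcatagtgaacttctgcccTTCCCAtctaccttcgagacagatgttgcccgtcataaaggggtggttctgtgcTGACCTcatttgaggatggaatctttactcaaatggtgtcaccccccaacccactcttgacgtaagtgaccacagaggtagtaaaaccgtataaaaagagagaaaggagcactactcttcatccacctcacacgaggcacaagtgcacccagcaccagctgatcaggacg
The Ikaros core was found in a window of 5 of the 8 genes with windows (Rora, Il17a, Il23r, Ccr6 and Tmem176a), the ROR core in 4 (Il17a, Il17f, Il23r and Ccr6) and the Ahr core in 1 (Rora). Counted by window, as the shares of all windows above are, this was 5, 4 and 1 of 12 windows. Ikaros cores thus lay in windows of genes that passed between genotypes and of genes that did not.

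Il17f had 3.58, 3.79 and 3.78 on the Cre+ activated and 3.56, 3.71 and 3.50 on the Cre- activated arrays, with a difference of 0.12 (95% interval -0.16 to 0.40). Its baseline arrays had 3.56, 3.68 and 3.70 in Cre+ and 3.48, 3.26 and 3.74 in Cre- cells, with a difference of 0.15 (95% interval -0.13 to 0.43). Il22 had 1.01, 0.99 and 0.76 on the Cre+ activated and 1.10, 0.97 and 1.11 on the Cre- activated arrays, and 0.88, 0.96 and 0.91 on the Cre+ baseline and 1.00, 0.96 and 0.90 on the Cre- baseline arrays. The groups overlapped in every case, and the Il22 differences were -0.14 (95% interval -0.36 to 0.07) and -0.04 (95% interval -0.25 to 0.18). Over all 9 genes the median genotype difference was 0.14 after activation and 0 at baseline, beside -0.01 and 0 for all genes tested.

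**Figure D5:**
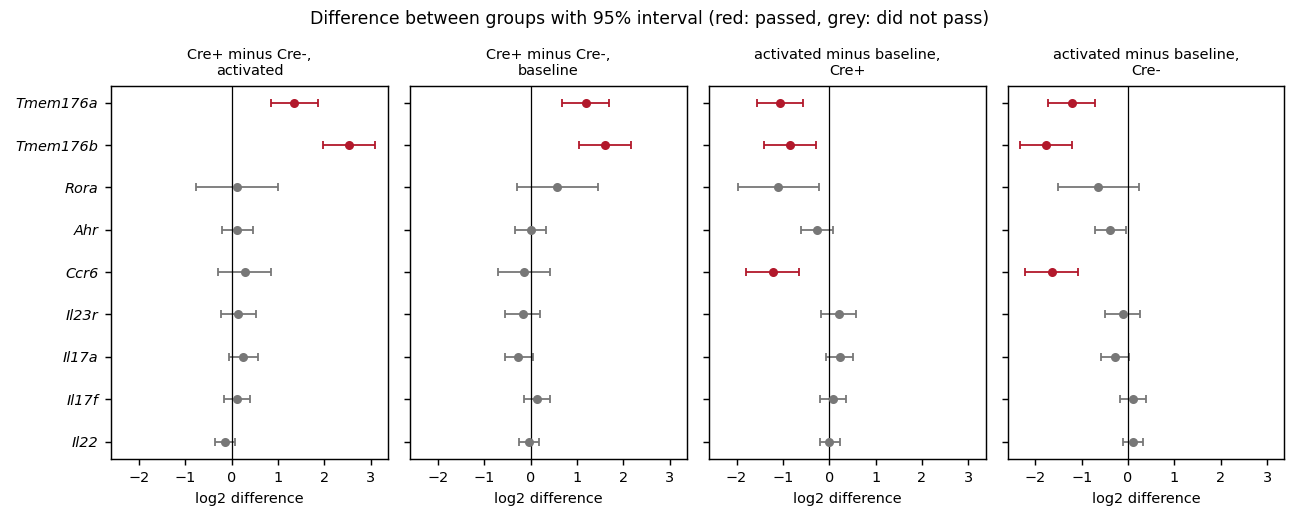
Log2 difference (horizontal axis) with its 95% interval for each gene in Cre+ minus Cre- activated cells, Cre+ minus Cre- baseline cells, activated minus baseline Cre+ cells and activated minus baseline Cre- cells. Red points passed the limma test and grey points did not; the genotype panels have Tmem176a and Tmem176b in red, and the activation panels have Tmem176a, Tmem176b and Ccr6.

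Activation lowered Ccr6 and the Tmem176 pair in both genotypes. In Cre+ cells 3 of the 9 genes passed, all lower, where 20.7% of all genes passed and 10.6% were lower, and in Cre- cells the same 3 of 9 passed, where 18.5% of all genes passed and 9.1% were lower. Ccr6 averaged 3.63 ± 0.36 in activated and 4.86 ± 0.12 in baseline Cre+ cells (SD, n = 3 each), a difference of -1.22 (SE 0.26), or 2.33-fold lower (limma adjusted p = 0.00638). In Cre- cells it averaged 3.35 ± 0.62 activated and 5.0 ± 0.09 at baseline, 3.13-fold lower (limma adjusted p = 0.0012). Activated arrays lay below baseline arrays without overlap in both genotypes, as they did for 19.3% of all genes in Cre+ and 17.4% in Cre- cells. On the activated arrays Ccr6 exceeded 23.9% (Cre- array 3) to 48.7% (Cre+ array 2) of all rows, which takes in the dim range of Il17f. Whether background limits the size of its fall cannot be read from the deposited table. Ccr6 is also a gene of B cells, whose markers fell as well: 5 of 7 passed as lower in Cre+ and 7 of 7 in Cre- cells, with median differences of -1.51 and -2.88. Cd79a, part of the B cell receptor, differed by -3.21 in Cre+ and -4.01 in Cre- cells. The part of B cells in the fall of Ccr6 was not tested. The genes most like Ccr6 over the 12 arrays were Jmjd1c, Tsc22d1, Myo1f and Laptm5 (r = 0.98, 0.977, 0.976 and 0.974).

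Tmem176a fell by a difference of -1.06 (SE 0.23, limma adjusted p = 0.00684) in Cre+ cells and of -1.22 (SE 0.23, adjusted p = 0.00347) in Cre- cells, 2.09-fold and 2.33-fold lower on activation. Tmem176b fell by a difference of -0.84 (SE 0.26, limma adjusted p = 0.0383) in Cre+ cells, 1.79-fold lower, and of -1.77 (SE 0.26, adjusted p = 0.000715) in Cre- cells, 3.41-fold lower. For both genes the activated arrays lay below the baseline arrays of their genotype without overlap, as for 19.3% of all genes in Cre+ and 17.4% in Cre- cells. The Cre+ call for Tmem176b was lost when any 1 of the 6 Cre+ arrays was left out (differences of -0.96 to -0.66, adjusted p 0.0516 to 0.115), whichever of Cre+ activated 1, 2 or 3 or Cre+ baseline 1, 2 or 3 it was. It was also lost without Cre- baseline array 1, 2 or 3 or Cre- activated array 2, at a difference of -0.84 (adjusted p = 0.0553, 0.0535, 0.0527 and 0.051). In Cre- cells its difference lay between -2.10 and -1.49 over all arrays left out and passed each time.

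Rora averaged 6.09 ± 0.87 in activated and 7.20 ± 0.22 in baseline Cre+ cells, a difference of -1.11 (95% interval -1.98 to -0.23) that did not pass (limma adjusted p = 0.0731). Cre+ activated array 2, at 7.08, lay within the baseline range. Without it the difference was -1.61 and passed (adjusted p = 0.00396), and without Cre- activated array 3 it was -1.11 and passed (adjusted p = 0.0257). In Cre- cells Rora averaged 5.97 ± 0.71 activated and 6.61 ± 0.14 at baseline, with no overlap, and the difference of -0.64 (95% interval -1.51 to 0.24) did not pass. Ahr activated arrays lay below baseline arrays in both genotypes. Such separation held for 19.3% of all genes in Cre+ and 17.4% in Cre- cells. The Ahr differences of -0.26 in Cre+ and -0.39 in Cre- cells did not pass (limma adjusted p = 0.275 and 0.108). In Cre- cells Ahr passed at -0.39 without Cre+ baseline array 2 (limma adjusted p = 0.0472). The cytokine genes and Il23r differed by between -0.29 (Il17a in Cre- cells) and 0.22 (Il17a in Cre+ cells) on activation, and none passed.

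Whether activation acted differently in the genotypes was tested directly, as the Cre+ response minus the Cre- response. Of the 9 genes 0 passed by limma, where 0.00863% of all genes passed, and 2 had an unadjusted p under 0.05. Tmem176b differed by 0.93 (SE 0.36, 95% interval 0.13 to 1.73, limma adjusted p = 0.984), a difference that did not pass. Il17a differed by 0.51 (SE 0.20, 95% interval 0.08 to 0.94, limma adjusted p = 0.984), with responses of 0.22 in Cre+ and -0.29 in Cre- cells that did not pass. Tmem176a gave 0.16 (95% interval -0.55 to 0.87) and Ccr6 0.43 (95% interval -0.38 to 1.23). The genotype differences and activation responses of a gene share arrays, so they are not independent of each other.

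Other genes of the Th17 pathway were counted on a list of 24, of which 23 were measured. Between genotypes 0 passed after activation by limma, where 0.729% of all genes passed. Of the list 2 had an unadjusted p under 0.05 there, and the median difference was 0.12, beside -0.01 for all genes. At baseline 1 passed, where 0.552% of all genes passed. This was Irf4, a factor needed for Th17 differentiation and for other T cell fates. It averaged 7.48 ± 0.16 in Cre+ and 6.52 ± 0.09 in Cre- baseline cells (SD, n = 3 each), a difference of 0.95 (limma adjusted p = 0.00317). After activation Irf4 averaged 10.37 in Cre+ and 10.27 in Cre- cells and did not pass. Stat3, which carries interleukin-6 and interleukin-23 signals, differed by 0.25 after activation and -0.02 at baseline, Batf, a partner of Irf4, by 0.10 and -0.05, and the cytokine gene Il21 by 1.10 (SE 0.55) and -0.44. None of these passed.

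On activation the list split in both directions. In Cre+ cells 8 of 23 were higher and 6 lower, where 20.7% of all genes passed, and the median was 0.22, beside -0.02 for all genes. In Cre- cells 6 were higher and 6 lower, where 18.5% of all genes passed, and the median was -0.06, beside 0. Irf4, Batf, Hif1a, Fosl2, Il12rb1 and Rbpj rose in both genotypes, Irf4 by 2.90 in Cre+ and 3.74 in Cre- cells and Il12rb1, which encodes the chain shared by the receptors of interleukin-12 and interleukin-23, by 2.19 and 2.5. Maf, Runx1, Sgk1, Il6ra, Il6st and Tgfbr2 fell in both. Il6ra, the receptor of interleukin-6, had differences of -2.12 and -1.63, and Tgfbr2, a receptor subunit for TGF-beta, of -1.52 and -1.33. Stat3 (0.39) and Il21 (2.2) passed in Cre+ cells. Whether those responses differed between genotypes was tested by the same model, in which 0 of the 23 genes passed and 2 had an unadjusted p under 0.05. Without both activated arrays numbered 3, Prdm1 and Socs3 joined the genes called in Cre+ cells, which gave 9 higher and 7 lower, and the Cre- counts were 6 and 6.

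Receptors and relatives of these cytokines, and Ahr partners, were counted in the same way. Of 8 receptor genes for interleukin-17 and interleukin-22, 0 passed by limma between genotypes, where 0.729% of all genes passed after activation and 0.552% at baseline. An unadjusted p under 0.05 was found for 0 of them after activation and 1 at baseline. Il17rb, a receptor chain for interleukin-25, fell on activation by differences of -2.33 in Cre+ and -1.58 in Cre- cells (limma adjusted p = 5.7e-05 and 0.000963), and Il10rb fell in Cre- cells (-0.56). Of 7 other cytokine genes of the interleukin-17 and interleukin-10 families, 0 passed by limma between genotypes, beside the same shares of all genes. Among them 0 had an unadjusted p under 0.05. Il10, a regulatory cytokine gene, rose on activation by 1.00 in Cre+ and 1.58 in Cre- cells (limma adjusted p = 0.0461 and 0.00536). Among the Ahr list, Ptges3, which encodes a chaperone of the Ahr complex, rose in both genotypes (0.70 and 0.89), and Tiparp, a known Ahr target, fell in both (-0.51 and -0.52). Lpcat2 fell in both as well (-1.19 and -1.22), while Nqo1 (0.90) rose and Arntl (-0.81) fell in Cre+ cells.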

How the data were processed

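Expression was measured in 12 samples on Mouse Gene 2.0 ST arrays. The values are log2 expression, which the authors made with RMA (affy 1.36.1, R 2.15.1), per the submitters' processing notes. The genome build and chip definition were not given in the sources used here. The deposited values ran from 0.542 to 13.2, with 1 row per Entrez gene. Of 25206 rows, 23185 had 1 gene symbol and were tested; 2021 had none. 1 gene on the Th17 list is not reported here. Groups were taken from the labels.

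A single linear model in limma 3.58.1 (R 4.3.3) held the 4 group means of the 12 arrays and no other term. It had 8 residual degrees of freedom, and 3.55 came from the prior. The 5 comparisons were tested two-sided, with Benjamini-Hochberg adjustment over 23185 genes and a threshold of 0.05. SE and 95% intervals are moderated. The number of arrays limits the precision. In simulated data for the activated genotype comparison (23185 genes), 85% of 2-fold and 100% of 4-fold changes were recovered, with 14 false calls. The simulated noise was independent between arrays and had the same SD in all groups for a gene. The measured activated arrays spread more (median SD 0.172 in Cre+ and 0.176 in Cre- cells) than the baseline arrays (0.128 and 0.134). The simulated shares can thus overstate recovery in the activated comparison.

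The genes, lists and rules were chosen with earlier results of these data known. Named genes were the 9 genes at any value, list members that passed (at most 6 per list and comparison), markers and Ikzf1, Stat3, Irf4, Batf and Il21 at any value, and the 4 genes most like each of the 9 whose mean was at or above the median gene. Predicted genes, Riken names and receptor gene segments were left out of these likeness rankings. The alternatives were array weights, a replicate block, robust moderation with a variance trend, a mean of at least 5, all rows, median centring, quantile normalization, only the arrays compared, both activated arrays numbered 3 left out, and each array left out in turn. Promoter windows came from RefSeq and were searched on both strands.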

Additional observations from a re-analysis of the deposited data

How the results depend on the processing

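Of 911 gene values recomputed under up to 21 alternatives, 888 kept their direction and 23 reversed, none of them in a result that passed. Tmem176b after activation passed in 20 of 21 settings (2.26 to 2.86), Tmem176a after activation in 16 (1.19 to 1.62), Tmem176b at baseline in 15 (1.55 to 1.73) and Tmem176a at baseline in 9 (1.05 to 1.39). Ccr6 on activation, Tmem176a on activation and Tmem176b on activation in Cre- cells passed in every setting run. The number of the 9 genes called at baseline was 1 with the replicate block, with the variance trend and robust moderation, and with median centring, where Tmem176a had limma adjusted p of 0.0683, 0.0511 and 0.0567. After activation the number was 0 when only the arrays compared were fitted. For the difference of responses it was 1 with array weights (Tmem176b 1.19, limma adjusted p = 0.0418). With 1 array left out the number called was 1 to 2 after activation, 0 to 2 at baseline, 2 to 4 for activation in Cre+ cells, 3 to 4 in Cre- cells and 0 for the difference of responses. The cause was not tested.

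The labels used here do not say whether the replicate numbers pair the samples. Deviations from the group means of same-numbered activated Cre+ and Cre- arrays correlated at r = -0.045, 0.571 and 0.728, and baseline ones at -0.025, 0.137 and 0.149. The highest r of each Cre+ array with a differently numbered Cre- array was 0.036, 0.574 and -0.577 after activation. At baseline it was 0.047, 0.007 and 0.017. These values do not settle whether the numbers mark pairs. With the replicate block 2 of 45 gene calls changed, Tmem176a at baseline (1.19) and Rora on activation in Cre+ cells (-1.11, limma adjusted p = 0.0221). Rora there also passed with array weights (-1.39) and with a mean of at least 5, a filter that removed Il17a, Il17f, Il22, Il23r and Ccr6. Tmem176b on activation in Cre+ cells did not pass with median centring (-0.79).

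Reversed values with array weights were, after activation, Rora -0.47, Il17f -0.05 and Ccr6 -0.31, on activation in Cre+ cells Il17f -0.02, and in the difference of responses Il22 0.02 and Ccr6 -0.19. Without both activated arrays numbered 3, Ccr6 after activation was -0.03. With 1 array left out the ranges that crossed 0 were, after activation, -0.39 to 0.43 for Rora and -0.06 to 0.53 for Ccr6, and at baseline -0.18 to 0.09 for Ahr. On activation they were -0.04 to 0.08 for Il22 in Cre+ cells and -0.02 to 0.22 for Il17f in Cre- cells, and in the difference of responses -0.15 to 0.09 for Il17f and -0.04 to 0.36 for Tmem176a. The 3 arrays a group limit the precision, and the deposited table gives no background measure for the dim probes of Il17a, Il17f, Il22 and Il23r.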

Other observations

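Il17a and Il17f are neighbours on chromosome 1. Of the 6 nearest protein-coding genes on each side in RefSeq's order, 11 of 12 were measured. By limma 0 passed between genotypes, where 0.729% of all genes passed after activation and 0.552% at baseline. The differences lay between -0.23 and 0.46 after activation and between -0.20 and 0.29 at baseline, and 0 had an unadjusted p under 0.05 in either state. On activation Mcm3, a DNA replication gene, was higher by 1.75 in Cre+ and 1.64 in Cre- cells (limma adjusted p = 0.029 and 0.042). Paqr8 was lower, with differences of -0.81 and -0.97 (limma adjusted p = 0.0198 and 0.00846). Of all genes, 20.7% passed on activation in Cre+ and 18.5% in Cre- cells.

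Markers of other lymphocytes that can carry type 17 genes were also read. Innate lymphoid cell genes (4 of 5 measured) averaged 4.56 to 4.84 on Cre+ activated and 4.61 to 4.83 on Cre- activated arrays, and 5.03 to 5.17 on Cre+ baseline and 5.10 to 5.23 on Cre- baseline arrays. None of the 4 passed between genotypes, where 0.729% of all genes passed after activation and 0.552% at baseline. Kit fell on activation by differences of -1.11 in Cre+ and -1.13 in Cre- cells (limma adjusted p = 0.000442 and 0.000427). NK cell markers (4 genes) averaged 4.18 to 4.8 on Cre+ activated and 3.87 to 4.32 on Cre- activated arrays. At baseline they averaged 4.44 to 4.59 in Cre+ and 4.43 to 4.77 in Cre- cells. Between genotypes 0 passed by limma, and 2 had an unadjusted p under 0.05 after activation. The largest difference there was 1.48, for Eomes, beside 0.34 for Klre1, 0.18 for Ncr1 and 0.07 for Klrb1c. On activation in Cre+ cells Eomes rose (2.57), Ncr1 (-1.21) and Klrb1c (-0.99) fell, and Klre1 (-0.19) did not pass. CD8 T cell markers (2 genes) averaged 6.53 to 7.13 on Cre+ activated, 5.97 to 7.15 on Cre- activated, 6.73 to 7.33 on Cre+ baseline and 6.57 to 6.98 on Cre- baseline arrays, and passed in no comparison.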
